A study of Homo sapiens with 4 samples.

Results

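The ETS family factors ETS1, ETS2, ELF1, ELF3, ELF4, EHF, ELK3, ETV4 and ETV5 were followed in a colon cancer epithelial line before and after TGF-β1. The rule lists these 9 gene symbols, and every probe set that the array's annotation assigned to 1 of them alone was taken, which gave 28 of the 54613 probe sets tested. The cells, LSTGFBR2, carry a TGFBR2 construct made with the T-Rex doxycycline-inducible system. 2 arrays came from cells with no treatment and 2 from cells given 5 ng/ml human recombinant TGF-β1 for 16 hours, starting 16 hours after seeding. The protocol shared by all 4 samples names 1 μg/ml doxycycline from seeding, and the series' text speaks of its presence or absence, but which of the arrays had it is not in the labels. All groups are 1 cell line, and the labels do not say whether it is 1 clone or whether replicates were separate cultures. RNA was read on HG-U133 Plus 2.0 arrays as RMA values, a log2 scale on which 1 unit is 2-fold.

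ETS factors share the ETS domain, a winged helix that binds DNA around a GGAA core, and differ in the flanking bases and partners they prefer. Many act at the end of the ERK kinase cascade, which phosphorylates ETS1, ETS2 and the ELK and PEA3 (ETV4 and ETV5) subfamilies. In gut epithelium ELF3 and EHF belong to an epithelium-specific subfamily, ELF1 and ELF4 are best known from blood cells, and ELK3 represses serum response genes together with SRF until ERK signalling turns it into an activator. ETS1 is known for its part in invasion and in mesenchymal cells.

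RefSeq promoter sequences were matched by symbol for 6 of the 9 members, in 13 annotated windows of 250 bases before a transcription start (GRCh38.p14). The genes below are shown because the first 3 had the largest upward differences on the arrays and the last, ELF3, had hardly any. ELK3, ELF4 and ELF1 had further windows that are not shown. The ELF4 window shown is its only 1 with an AP-1 motif, and the ELF1 window shown has the most SMAD boxes of its windows. Capitals mark the SMAD box CAGAC and, in ELF4, the AP-1 motif TGANTCA, both searched on both strands.
ELK3, chr12:96194125-96194374, plus strand: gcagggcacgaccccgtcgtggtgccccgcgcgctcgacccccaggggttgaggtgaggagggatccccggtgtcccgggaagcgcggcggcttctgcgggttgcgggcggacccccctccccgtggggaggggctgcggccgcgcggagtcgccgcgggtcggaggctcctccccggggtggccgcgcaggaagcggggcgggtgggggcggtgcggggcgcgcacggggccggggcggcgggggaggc
ELF4, chrX:130110498-130110747, minus strand: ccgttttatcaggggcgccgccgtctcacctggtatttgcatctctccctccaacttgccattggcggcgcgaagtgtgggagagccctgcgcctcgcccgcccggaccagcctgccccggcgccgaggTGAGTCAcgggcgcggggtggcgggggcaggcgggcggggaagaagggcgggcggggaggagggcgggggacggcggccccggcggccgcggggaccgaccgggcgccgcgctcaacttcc
ELF1, chr13:41061387-41061636, minus strand: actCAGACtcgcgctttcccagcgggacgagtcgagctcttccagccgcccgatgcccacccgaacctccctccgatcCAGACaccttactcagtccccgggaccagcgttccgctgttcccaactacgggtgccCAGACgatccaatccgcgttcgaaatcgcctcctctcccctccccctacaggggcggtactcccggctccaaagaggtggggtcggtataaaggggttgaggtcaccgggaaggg
ELF3, chr1:202010337-202010586, plus strand: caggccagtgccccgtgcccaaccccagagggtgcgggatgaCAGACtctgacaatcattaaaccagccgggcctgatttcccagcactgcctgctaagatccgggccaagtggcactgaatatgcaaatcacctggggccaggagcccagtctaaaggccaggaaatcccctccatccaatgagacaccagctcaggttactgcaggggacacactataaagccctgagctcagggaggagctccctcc
Neither ELK3 window held a SMAD box, an AP-1 motif or the ETS motif CCGGAAG. The ELF1 window above held 3 SMAD boxes, starting 247, 172 and 115 bases before the start, and the ELF3 window held 1 at 208 bases. SMAD boxes occurred in 4 of the 13 member windows (2 of ELF1, 1 of ELF3 and 1 of EHF), and 38% of all 35116 RefSeq windows of this length held at least 1. An AP-1 motif was found in 1 of 13, the ELF4 window above at 121 bases before the start, against 6.57% of all windows, and the ETS motif in 0 of 13, against 8.52%. The motifs did not overlap. A match describes the letters of a window only.

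The arrays were first checked as a whole. Across probe sets, r was 0.995 between replicates of either group and 0.990 to 0.992 between groups. One of the pair of TGFBR2 probe sets, 207334_s_at, read 9.44 and 9.55 untreated and 14.70 and 14.92 with TGF-β1, while the other, 208944_at, read 10.47 and 10.81 against 10.58 and 10.76. The groups thus differ in a TGFBR2 transcript signal as well as in TGF-β1, and the parts of doxycycline and TGF-β1 in the results below cannot be told apart. The epithelial label went with bright probe sets of EPCAM (14.12 to 14.29 over the 4 arrays) and KRT18 (14.95 to 15.17). Of all 18 probe sets of the 10 epithelial markers, 14 had means of 7 or more. At an unadjusted limma p under 0.05, 3 of the 18 were higher, 1 of them called, and 4 were lower. The higher ones were of CLDN4 (log2 difference 0.92, 1.90-fold, limma adjusted p = 0.0431) and CDH1 (0.46 and 0.56, limma adjusted p = 0.137 and 0.176). CDH1 and the genes of the lower ones are named after their values were seen. The lower ones were of CDX2 (-0.73 and -0.71) and CLDN3 (-0.46 and -0.44). None of these 4 was called (limma adjusted p from 0.0640 to 0.351). No probe set passed among 27 of fibroblast, 15 of endothelial and 17 of leukocyte markers, by limma at adjusted p under 0.05. In those lists, 6 had an unadjusted limma p under 0.05, all of fibroblast markers, 2 higher and 4 lower. Probe sets of PTPRC, which encodes the leukocyte antigen CD45, read 2.89 to 4.75. Summed on the linear scale, fibroblast marker signal was 2233 and 2754 untreated and 2359 and 2472 with TGF-β1, and endothelial marker signal was 765 and 777 against 765 and 821. COL1A1, a fibroblast collagen gene, had the largest difference among these markers (1556499_s_at, log2 difference 2.99 ± 0.436 SE, limma adjusted p = 0.0501). This probe set passed under 5 alternatives (limma adjusted p from 0.0326 to 0.0473 with a minimum mean of 5, an intensity trend, either centring or replicate numbers in the model). Of the other 4 COL1A1 probe sets, 202310_s_at was higher without overlap (1.57, limma adjusted p = 0.0931) and 3 had differences between 0.03 and 0.08. COL3A1, another fibroblast collagen gene, had 3 of 5 probe sets lower without overlap, at -1.79, -1.63 and -1.72 (limma adjusted p from 0.254 to 0.355). Replicates of these 3 lay up to 1.92 apart, and replicate 1 was above replicate 2 in both groups. The part of such cells in the results was not tested.

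Across the family, 1 probe set passed, for ELK3, and it rose. Of the 28 probe sets, 1 was called higher, 0 lower and 27 were not called by limma at a threshold of 0.05 on the p-value adjusted by Benjamini-Hochberg over the whole table. The background in that comparison was 0.65% called higher and 0.304% called lower, 0.954% in all. At an unadjusted p under 0.05, 6 were higher and 2 lower, 28.6% of the members' probe sets, against a background of 6.34% higher and 6.87% lower, 13.2% in all. The 8 came from ELK3, ELF4, ELF1, ETV4 and ETV5. The members' probe sets were brighter than the background, with means of 7 or more in 23 of 28, against 23578 of 54613. The part of brightness in these shares was not tested. The arrays of the groups did not overlap in 11 of 28 probe sets, 39.3%, which is close to the background of 40.8%. By direction, 8 were higher and 3 lower, where the background was 19.2% and 21.6%. The median log2 difference of the members' probe sets was 0.01, against -0.01 over all probe sets. The rule in the series' text for a response signature, a rise of at least 2-fold with an unadjusted limma p under 0.05, was met by 1 member probe set, that of ELK3, where the background was 0.721%.

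**Figure D1:**
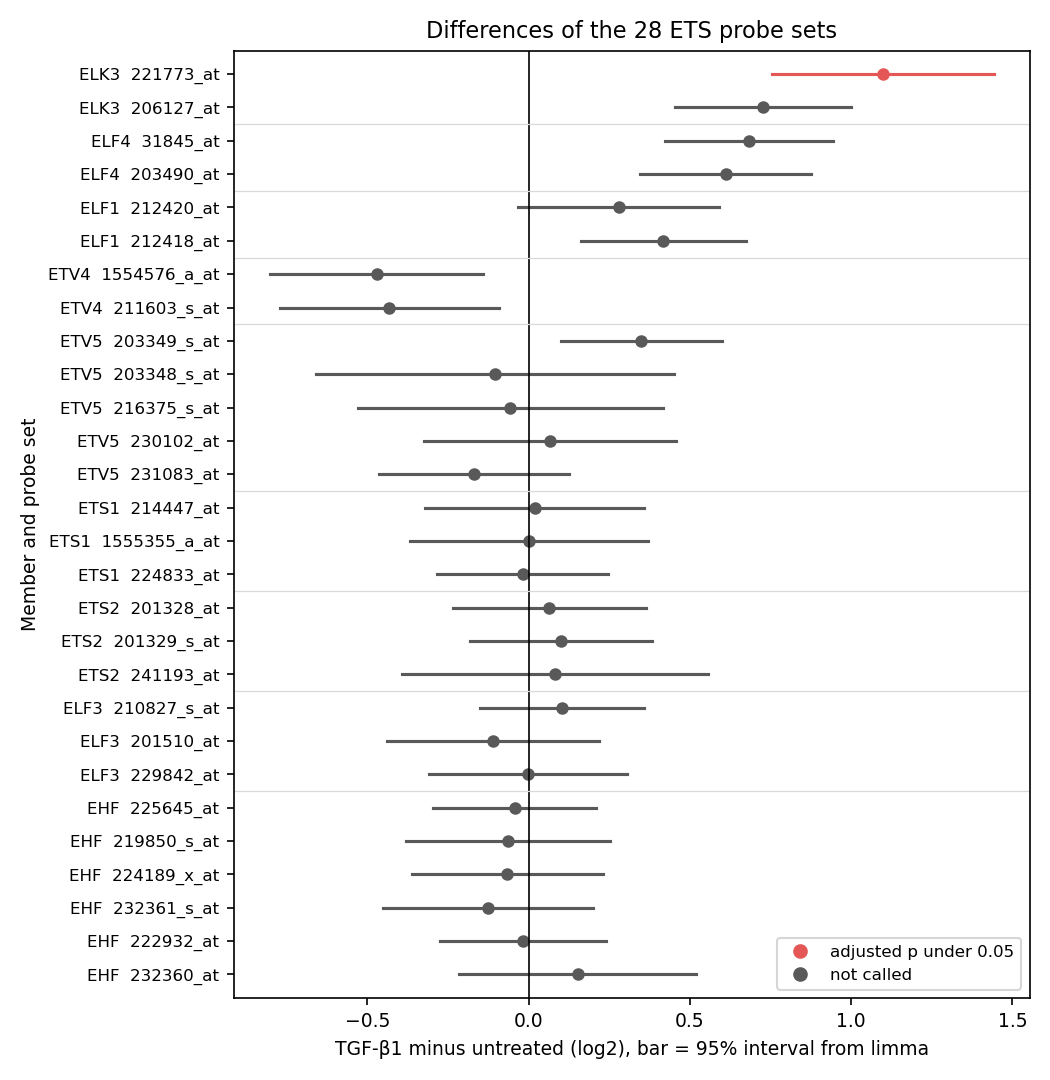
Log2 difference between the groups (x axis, TGF-β1 minus untreated) for each of the 28 probe sets (y axis, grouped by gene), as a point with its 95% interval from limma (n = 2 arrays per group). ELK3 221773_at, at 1.10, is the only point called at an adjusted p under 0.05, and its interval is the only one that reaches past 2-fold (1 on this scale).

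ELK3, the SRF partner also called Net, had the largest difference of the family. Its probe set 221773_at read 9.78 and 9.59 without treatment and 10.65 and 10.92 with TGF-β1. Both TGF-β1 arrays lay above both untreated arrays by more than the replicates lay apart. The rise was 2.14-fold, a log2 difference of 1.10 ± 0.140 (SE, n = 2 per group, limma adjusted p = 0.0373), with a 95% interval of 0.75 to 1.44. With replicate numbers in the model, 221773_at was not called (limma adjusted p = 0.101), though the numbers are not shown to pair the samples. The other ELK3 probe set, 206127_at, read 7.07 and 7.06 untreated and 7.71 and 7.87 with TGF-β1, again with no overlap. Its log2 difference was 0.73 ± 0.111 (SE, limma adjusted p = 0.0556), just short of the threshold. With both probe sets averaged into 1 value for the gene, the difference was 1.88-fold (limma adjusted p = 0.0158 over 19775 genes, of which 3.39% were called). Without any 1 of the 4 arrays, 221773_at was no longer called (limma adjusted p = 0.236 and 0.223 when untreated replicate 1 or 2 was removed, and 0.105 and 0.167 when TGF-β1 replicate 1 or 2 was), with log2 differences from 0.96 to 1.24. With an array left out, 0 to 26 of all 54613 probe sets were called in place of 521.

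ELF4, also known as MEF, an activator that has been studied in lymphocytes and in interferon responses, was next. Probe set 31845_at read 10.00 and 9.92 untreated and 10.61 and 10.68 with TGF-β1, and 203490_at read 8.71 and 8.59 against 9.24 and 9.28. In both probe sets the TGF-β1 arrays lay above the untreated ones, and replicates differed by at most 0.13. The log2 differences were 0.68 ± 0.106 and 0.61 ± 0.108 (SE), that is 1.61-fold and 1.53-fold, and neither passed (limma adjusted p = 0.0567 and 0.0737). As 1 value per gene ELF4 did pass, by its brighter probe set (limma adjusted p = 0.0277, with 3.34% of genes called) and by the mean of both (limma adjusted p = 0.0241, 1.57-fold). Per probe set, 31845_at also passed over probe sets with a mean log2 of 7 or more (limma adjusted p = 0.0349) and with an intensity trend (limma adjusted p = 0.0431), and 203490_at over the brighter probe sets alone (limma adjusted p = 0.0445). Neither passed with a minimum mean of 5, either centring or replicate numbers in the model. There, limma adjusted p ran from 0.0504 to 0.108 for 31845_at and from 0.0656 to 0.122 for 203490_at. With 1 array left out, the ELF4 log2 differences ran from 0.64 to 0.72 and from 0.55 to 0.67. Its relative ELF1, which is likewise abundant in lymphoid cells, read 10.25 and 10.27 untreated and 10.63 and 10.72 with TGF-β1 by 212418_at. By 212420_at it read 10.23 and 10.45 against 10.69 and 10.54. The groups did not overlap in either, but in 212420_at the gap between them was smaller than the gap between replicates. The log2 differences, 0.42 ± 0.104 and 0.28 ± 0.127 (SE), did not pass (limma adjusted p = 0.157 and 0.441).

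**Figure D2:**
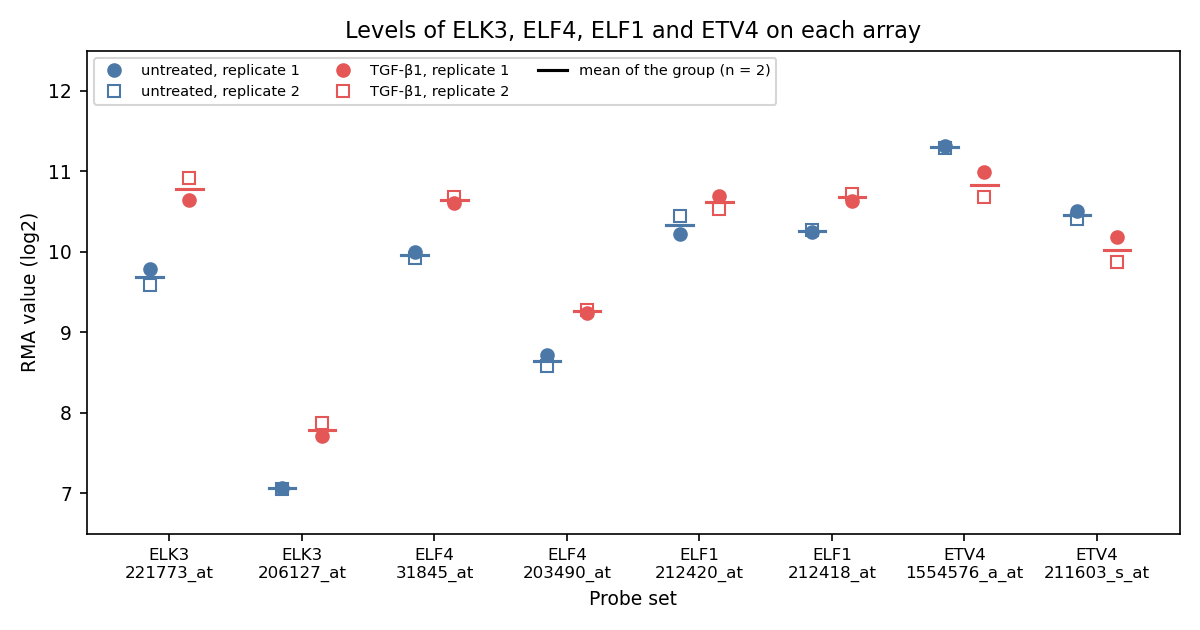
RMA value on the log2 scale (y axis) in each array for the probe sets of ELK3, ELF4, ELF1 and ETV4 (x axis), with filled circles for replicate 1, open squares for replicate 2 and a bar at the mean of each group. The TGF-β1 arrays lie above the untreated ones for ELK3, ELF4 and ELF1 and below them for ETV4, and heights are not comparable between probe sets.

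The PEA3 subfamily, whose genes are themselves raised by ERK signalling, had no probe set that passed. ETV4 by 1554576_a_at read 11.32 and 11.30 untreated and 10.99 and 10.68 with TGF-β1. By 211603_s_at it read 10.51 and 10.41 against 10.18 and 9.87. All TGF-β1 values lay under all untreated values in both probe sets, and TGF-β1 replicate 2 was the lowest array in both. The log2 differences were -0.47 ± 0.135 and -0.43 ± 0.138 (SE), 1.39-fold and 1.35-fold lower, short of the threshold (limma adjusted p = 0.206 and 0.254). ETV4 did not pass as 1 value per gene either (limma adjusted p = 0.129 by the brighter probe set and 0.123 by the mean).

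The 5 probe sets of ETV5 gave 2 positive and 3 negative differences. The brightest, 203349_s_at, read 10.27 and 10.31 untreated and 10.62 and 10.65 with TGF-β1, a log2 difference of 0.35 ± 0.102 (SE, limma adjusted p = 0.216) with close replicates. Another, 203348_s_at, read 9.61 and 9.73 untreated and 9.91 and 9.22 with TGF-β1. Here TGF-β1 replicate 1 was the highest array and replicate 2 the lowest, and 216375_s_at had the same order (8.34 and 8.36 against 8.58 and 8.01). The mean differences of these, -0.11 and -0.06, were thus averages of a TGF-β1 pair that lay 0.69 and 0.57 apart. The dimmer 230102_at and 231083_at had log2 differences of 0.07 ± 0.159 and -0.17 ± 0.120 (SE). No direction can be given for ETV5, whose mean over 5 probe sets differed by 0.02 ± 0.104 (SE, limma adjusted p = 0.974).

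**Figure D3:**
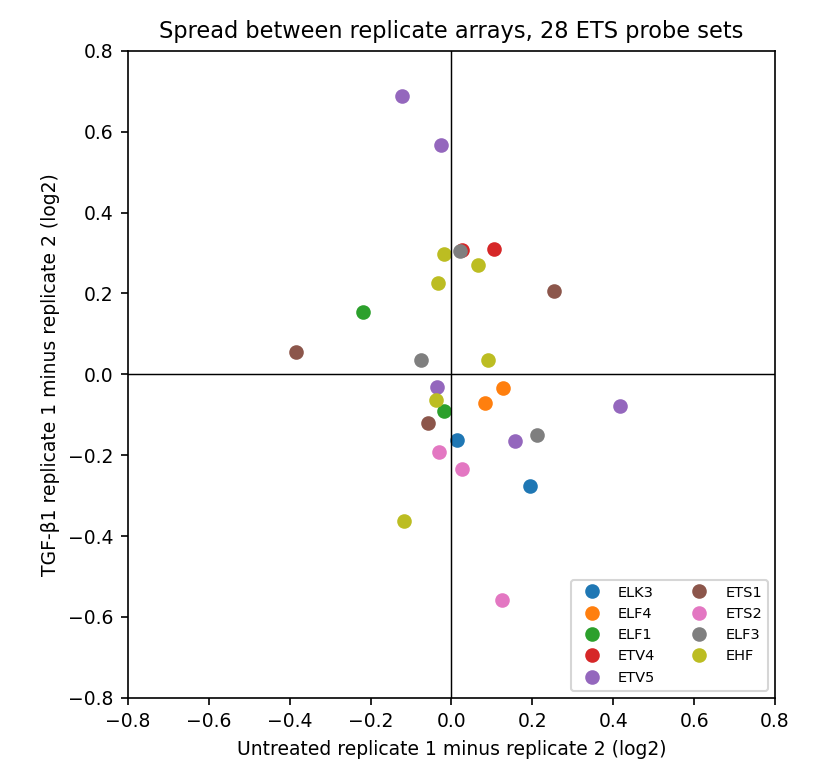
Difference between replicate arrays in log2 units for the 28 probe sets, with untreated replicate 1 minus 2 on the x axis, TGF-β1 replicate 1 minus 2 on the y axis and 1 colour per gene. The points farthest from 0 are ETV5 203348_s_at and 216375_s_at, at 0.69 and 0.57 on the y axis, and ETS2 241193_at, at -0.56.

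The spread between the TGF-β1 replicates was wider for the family than that between the untreated ones. The median absolute replicate difference over the 28 probe sets was 0.08 in untreated and 0.18 in TGF-β1 arrays, where over all probe sets it was 0.13 in both. The 3 probe sets whose replicates lay over 0.5 apart, 2 of ETV5 and 1 of ETS2, did so in the TGF-β1 group. The difference in spread was not tested.

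ETS2 and ETS1, the founding pair of the family, showed no change that passed. ETS2, which is read by 2 bright probe sets, gave 12.47 and 12.45 untreated and 12.40 and 12.64 with TGF-β1 by 201328_at. By 201329_s_at it gave 12.11 and 12.14 against 12.13 and 12.32. The groups overlapped in both. The 95% intervals of the log2 difference were -0.24 to 0.36 and -0.18 to 0.38, which reach 1.30-fold at most, and larger rises lie outside them. The third ETS2 probe set, 241193_at, read 6.51 and 6.39 against 6.26 and 6.81. Its 95% interval was wider, -0.39 to 0.56, and reached 1.47-fold. ETS1 was dim in all 3 of its probe sets. By 214447_at it read 6.40 and 6.15 untreated and 6.39 and 6.19 with TGF-β1. The other ETS1 probe sets read 3.36 to 3.97 over the 4 arrays, where the array medians were 6.57 to 6.61. The ETS1 log2 differences were -0.02 to 0.02, with limma adjusted p from 0.986 to 1. RMA gives no detection call, so whether these ETS1 values are above background was not tested.

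The epithelial ETS factors ELF3 and EHF were measured by 9 probe sets with group means of 7 or more, and none was called. ELF3, an activator of epithelial genes, read 8.43 and 8.51 untreated and 8.59 and 8.55 with TGF-β1 by 210827_s_at. This was its only probe set whose groups did not overlap, and its log2 difference was 0.10 ± 0.104 (SE, limma adjusted p = 0.799). By 201510_at ELF3 read 8.32 and 8.30 against 8.35 and 8.05, and by 229842_at 8.37 and 8.16 against 8.19 and 8.34. Differences for these were -0.11 and -0.00 on the log2 scale, and the second turned to 0.0065 with arrays centred on their medians. EHF, its closest relative on this list, was read by 6 probe sets with groups that overlapped in all of them. The brightest, 225645_at, gave 13.18 and 13.22 untreated and 13.13 and 13.19 with TGF-β1 (log2 difference -0.04 ± 0.103 SE, limma adjusted p = 0.944). EHF differences were negative in 5 of 6 probe sets and ran from -0.13 to 0.15, and TGF-β1 replicate 2 was lower than replicate 1 in 4 of them. Over the 9 probe sets of ELF3 and EHF, the widest 95% intervals reached 1.37-fold lower and 1.43-fold higher, so that larger changes lie outside them.

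The rest of the ETS family was read for comparison. Of the other 19 human ETS genes listed, 18 were measured by 55 probe sets, and 0 were called in either direction by limma, with 1 at an unadjusted p under 0.05. Over all probe sets these shares were 0.954% and 13.2%. Means were 7 or more in 21 of the 55, against 23 of the 28 member probe sets. The median log2 difference of the 55 was 0.03. The 4 probe sets with the largest differences belonged to ELK4, an ELK3 relative (206919_at, -0.43), the endothelial factor gene ERG (222079_at, -0.30), the secretory cell factor gene SPDEF (220192_x_at, 0.30) and FLI1 (234614_at, 0.27), with limma adjusted p from 0.377 to 0.606. Those of ELK4, ERG and FLI1 were dim, at 6.55, 5.82 and 3.88 on average in untreated arrays. ELK4 206919_at read 6.30 and 6.80 untreated and 6.12 and 6.13 with TGF-β1. The remaining ELK4 probe sets had log2 differences from -0.24 to 0.15. The differences of all 55 probe sets of these other ETS genes ran from -0.43 to 0.30. Both probe sets of ELK3 and of ELF4, ELF1 212418_at and ETV5 203349_s_at lay above that range and both of ETV4 just below it, while ETS1, ETS2, ELF3 and EHF lay within it. Whether members differ from other ETS genes was not tested.

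**Figure D4:**
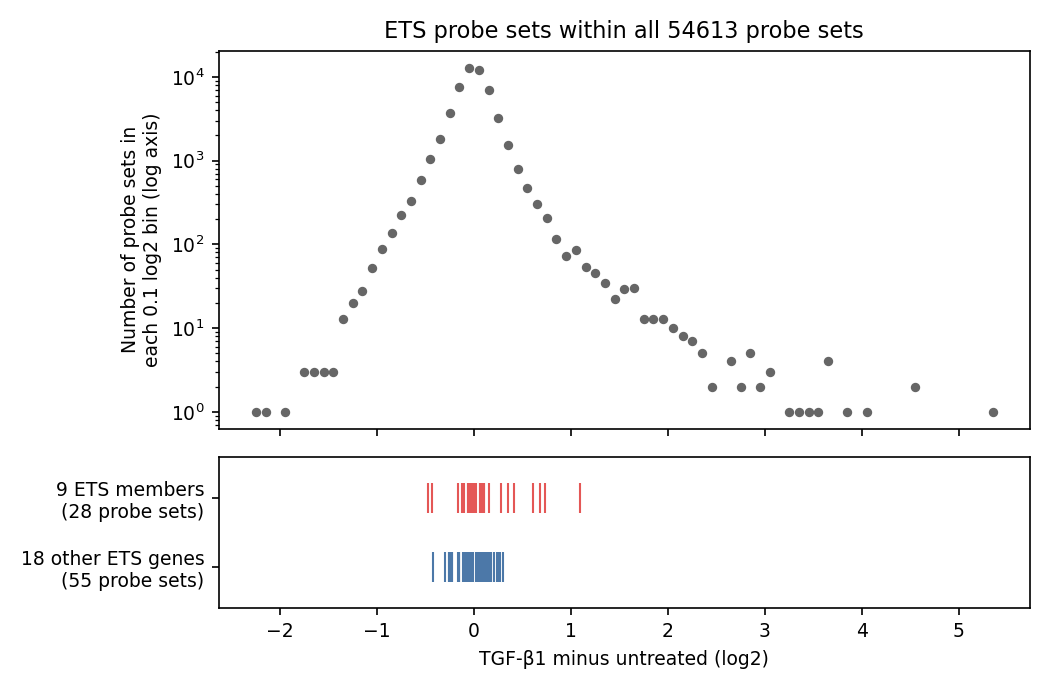
Upper panel, number of probe sets (y axis, log scale) per 0.1-wide bin of the log2 difference between groups (x axis, TGF-β1 minus untreated) for all 54613 probe sets. Lower panel, the 28 probe sets of the 9 members and the 55 of 18 other ETS genes, 1 mark each, where 5 marks of ELK3, ELF4 and ELF1 and 1 of ETV5 lie to the right of the highest other ETS probe set at 0.30.

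Kinases and cofactors that act on ETS proteins came next. Of 14 measured genes in this list, 1 rose and 0 fell. A gene was counted when any of its probe sets was called. By probe set, 2 of 33 were called higher in this list and 0 lower. The background for probe sets, in this list and those below, was 0.65% called higher and 0.304% called lower. It is not a background for counts of genes. The gene that rose was ATXN1, whose protein works with the repressor CIC, known for silencing ETV4 and ETV5. By 203231_s_at ATXN1 read 7.27 and 7.40 untreated and 8.37 and 8.32 with TGF-β1, 2.02-fold higher (limma adjusted p = 0.0236). By 203232_s_at it read 8.84 and 8.88 against 9.90 and 10.31, 2.37-fold higher (limma adjusted p = 0.0357). ATXN1 was not called by 242230_at, 1559249_at and 230507_at (log2 differences 0.97, 0.86 and 0.01, limma adjusted p = 0.0927, 0.0505 and 0.992). The list median of the log2 difference was 0.10 over 33 probe sets. The part of ATXN1 in the ETV4 and ETV5 values was not tested.

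Genes switched on by ERK signalling, among which ETV4 and ETV5 are usually counted, were read in the same way. Of 18 measured, 1 rose and 2 fell, by 1 and 2 of 44 probe sets. The median over the 44 was 0.27, against -0.01 over all probe sets. At an unadjusted p under 0.05, 13 of the 44 were higher and 4 lower, where the background was 6.34% higher and 6.87% lower. The largest rise in the list, 1.40, was in a probe set that was not called. EPHA2, a receptor tyrosine kinase, rose from 9.95 and 10.00 to 10.98 and 10.94 (1.97-fold, limma adjusted p = 0.0224). MYC fell from 12.14 and 11.99 to 10.56 and 10.42 (2.98-fold lower, limma adjusted p = 0.00943), and the ERK feedback inhibitor gene SPRY1 fell from 9.67 and 9.61 to 8.83 and 8.59 (1.91-fold lower, limma adjusted p = 0.0399). Among 9 measured genes listed as serum response genes, 1 rose and 0 fell, by 1 of 19 probe sets with a median of 0.34. The part of ELK3 in these values was not tested. JUNB, an AP-1 subunit gene, went from 8.79 and 8.96 to 10.53 and 10.51 (3.13-fold, limma adjusted p = 0.00796).

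Reported targets of the ETS factors themselves were counted last. Of 19 genes described as targets of ETS1, ETS2 or PEA3 factors, 3 rose and 0 fell, by 4 of 40 probe sets with a median of 0.03. Besides TGFBR2, which the construct carries, these were CDKN1A, the p21 gene (10.85 and 10.56 to 12.66 and 12.56, 3.75-fold, limma adjusted p = 0.00799), and PLAUR, the urokinase receptor gene. PLAUR went from 8.61 and 8.69 to 10.07 and 10.25 by 211924_s_at (2.85-fold, limma adjusted p = 0.0106). Of 10 measured genes described as targets of ELF3 or EHF, 1 rose, again TGFBR2, and 0 fell, by 1 of 15 probe sets with a median of -0.03. CDH1, the E-cadherin gene in that list, is named after its values were seen. It had log2 differences of 0.46 and 0.56 that did not pass (limma adjusted p = 0.137 and 0.176). With an array left out, EPHA2, SPRY1, JUNB, ATXN1, MYC, CDKN1A and PLAUR kept their directions but none passed.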

How the data were processed

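Total RNA from 4 samples of 1 cell line was measured on 1-colour arrays, and groups and replicate numbers came from the sample titles. Per the series' design text the authors' values are RMA output (background correction, quantile normalization, summarization per probe set); the deposited values are log2 by their range, 2.48 to 15.34. The RMA software and its version are not given in the labels. Quantile normalization would hide a shift of most transcripts, and the number of arrays limits the precision.

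Symbols came from the platform annotation, 1 symbol for 41097 of 54675 probe sets and several for 1801. For 41043 probe sets with 1 symbol the Entrez ID was found in RefSeq, and the RefSeq symbol was used. How many symbols this changed was not counted. No probe set with several symbols held a member. 62 control probe sets were left out. limma 3.58.1 in R 4.3.3 (lmFit, eBayes without trend, two-sided, 5.97 degrees of freedom) was fitted to all 54613 probe sets, and p-values were adjusted over all of them. An exact test of 2 against 2 arrays (permutation) cannot go below a p of 0.333, so none was used. No label names separate cultures, so the p-values rest on array-to-array spread that may be technical. The fit was tested on simulated data.

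The members, gene lists and tests were chosen with earlier results of these data known. Named genes are all members, the other ETS genes called or with the 4 largest differences, up to 4 called genes per list or, where none was called, the 2 with the largest differences, and TGFBR2. Markers named by this rule and not in the text above were VWF (0.22), PECAM1 (-0.17), MS4A1 (0.24) and CD3D (0.17), of which none passed. Alternatives were the replicate block, minimum mean values of 5 or 7, an intensity trend, centring on array medians or on 6 measured of 8 listed housekeeping genes, 1 value per gene, leaving out each array, unadjusted p-values and a 2-fold minimum.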

Additional observations from a re-analysis of the deposited data

How the results depend on the processing

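With 1 array left out, the array alone in its group was assumed to vary like the other group, and 0 to 26 probe sets were called in place of 521, 0 of the ETS members in place of 1, 0 to 2 of the listed genes in place of 11, and 120 to 252 met the mirror of the study's signature rule in place of 125. No count of the other ETS genes changed from 0 except at an unadjusted p under 0.05, where it was 1, beside 7215 of all probe sets, 8 of the members and 52 of the listed genes. With the replicate block, 88 probe sets were called, 0 of the members and 6 of the listed genes. ELK3 221773_at (limma adjusted p = 0.101), EPHA2, SPRY1, JUNB, ATXN1, PLAUR and CLDN4 were no longer called (0.0501 to 0.101), while MYC and CDKN1A were (0.0458 and 0.0454). Deviations of arrays with the same replicate number correlated at 0.224, and with only 2 numbers this does not show that the numbers pair the samples. Over the 23578 probe sets with a mean log2 of 7 or more, 966 were called. Among them were 4 of the 23 member probe sets (both of ELK3 and of ELF4) and 17 of the listed genes. An intensity trend gave 2 member probe sets (ELK3 221773_at and ELF4 31845_at), beside 697 of all 54613. Centring on array medians gave 2 beside 652, and centring on housekeeping genes 2 beside 635 (both probe sets of ELK3 each time). With 1 value per gene, 2 of the 9 members (ELK3 and ELF4) were called by the brightest probe set and 2 by the mean. Beside them, 660 and 670 of all 19775 genes were called. The signature rule then gave 201 and 141 genes higher and 73 and 49 lower. With a 2-fold minimum, 344 probe sets were called. Fewer features entered the fits per gene and above the minimum. For the rest the cause was not tested.

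Members whose difference turned sign were not called under any adjusted alternative. ELF3 229842_at turned to 0.0065 with arrays centred on medians and 0.0151 on housekeeping genes. With 1 array left out, log2 differences ran from -0.11 to 0.14 for ETS1 214447_at, -0.19 to 0.19 for ETS1 1555355_a_at, -0.078 to 0.042 for ETS1 224833_at, -0.054 to 0.18 for ETS2 201328_at, -0.20 to 0.36 for ETS2 241193_at, -0.11 to 0.10 for ELF3 229842_at, -0.26 to 0.042 for ELF3 201510_at, -0.20 to 0.071 for EHF 219850_s_at, -0.18 to 0.047 for EHF 224189_x_at, -0.28 to 0.022 for EHF 232361_s_at, -0.063 to 0.028 for EHF 222932_at, -0.030 to 0.33 for EHF 232360_at, -0.45 to 0.24 for ETV5 203348_s_at, -0.34 to 0.23 for ETV5 216375_s_at and -0.14 to 0.28 for ETV5 230102_at. Outside the family, TGFBR2 207334_s_at ran from 5.21 to 5.43, uncalled without untreated replicate 1 (limma adjusted p = 0.0665), TGFBR2 208944_at from -0.14 to 0.20 and VWF from -0.011 to 0.44. The precision of all values is limited by 2 arrays per group.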
